A study of Mus musculus with 6 samples.

Results

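The genes described are 10 imprinted genes tied to stem cell quiescence, H19, Cdkn1c, Meg3, Rian, Mirg, Grb10, Igf2r, Peg3, Ndn and Plagl1, taken by symbol from a table of 51826 genes, in which all 10 were found. They were read in the CD34-negative fraction of lineage-negative, Sca-1-positive, Kit-positive (KSL) cells from mouse bone marrow, a fraction that holds long-term hematopoietic stem cells. The WT group has 2 libraries and the Elovl6 knockout (KO) group 4, numbered 1 and 2 and 1 to 4. No agent or other allele is named for either group. The labels give no strain, age or sex, do not say which part of Elovl6 was removed or in which cells, and do not mention whether each library is 1 animal, a pool or a repeat, so the tests speak for the variation among these libraries, which may be technical. The comparison asks how the loss of Elovl6, an enzyme that lengthens fatty acids, bears on expression in these cells.

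An imprinted gene is read mainly from the maternal or mainly from the paternal copy, under DNA methylation set in the germ line and kept at control regions that often govern several neighbouring genes. Many imprinted genes act on growth: Cdkn1c, Grb10, Igf2r and H19 are maternally expressed and restrain it, and Meg3, Rian and Mirg are maternally expressed noncoding RNAs of the Dlk1 domain. Peg3, Ndn and Plagl1 are paternally expressed. In mouse marrow, imprinted genes of this kind are known for their high expression in long-term stem cells, and loss of Cdkn1c, of the H19 control region or of Meg3 is known to disturb stem cell maintenance.

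The 4 noncoding members are also hosts of small RNAs. In RefSeq (GRCm38.p6), 2 mature miRNAs of 1 hairpin lie within H19, 3 of 2 hairpins within Meg3, 6 of 3 hairpins within Rian and 26 of 14 hairpins within Mirg. Those shown are the pair from H19, of which miR-675 is known in mouse as a repressor of Igf1r, a representative of Meg3 and of Rian, and 4 from Mirg, the member whose exon counts were almost all in WT. Capitals mark the seed, bases 2 to 8.
miR-675-5p: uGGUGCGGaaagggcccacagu
miR-675-3p: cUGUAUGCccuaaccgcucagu
miR-770-5p: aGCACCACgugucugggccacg
miR-370-3p: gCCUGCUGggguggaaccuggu
miR-134-5p: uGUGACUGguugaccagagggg
miR-410-3p: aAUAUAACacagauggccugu
miR-453: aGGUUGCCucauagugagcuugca
miR-496a-5p: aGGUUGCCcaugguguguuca
Mirg holds 25 different seeds among its 26 mature miRNAs, and the only seed that occurs more than once there is GGUUGCC, shared by miR-453 and miR-496a-5p. None of these small RNAs can be read from the data, because the deposited exon length is 0 for all miRNA genes of GENCODE M21 on the hosts' strand in the table (1 in H19, 2 in Meg3, 4 in Rian and 14 in Mirg) and for 13 snoRNAs within Rian, and every gene of exon length 0 has 0 counts. The values of the hosts below are those of the reads credited to the host genes. Some of these small RNAs share sequence with the transcripts of H19, Rian and Mirg. Whether reads of small RNAs were counted to the hosts was not tested.

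The labels were checked first on Elovl6. Its level in CPM, counts scaled to a common depth by TMM library sizes, was 30.6 and 38.3 in the WT libraries against 21.4, 12.7, 19.5 and 8.81 in the KO libraries, each in the order of their numbers. Every KO library was below both WT libraries, but with a log2 fold change of -1.12 (SE 0.32) the gene missed the threshold of 0.05 on the adjusted p (0.346, edgeR quasi-likelihood test), and a count over all exons may miss the removal of a part of the gene. Expression counts summed to between 2121240 and 5137628 a library, with KO replicates 3 and 4 the shallowest and WT at 3569449 and 3812524. The ribosomal RNA gene CT010467.1 took 22.03% and 27.9% of mapped reads in KO replicates 3 and 4, and from 11.4% to 14.8% in each of the other libraries. Summed stem cell markers (15 of 15 with counts) ran from 3891 to 4197 CPM in WT and from 2868 to 4231 CPM in KO, lowest in KO replicate 1. Of the 14 tested one by one, 12 were below 0 on the log2 scale, 0 were called (edgeR quasi-likelihood test), and all 3 with an unadjusted p under 0.05 were lower in KO. Over all tested genes, 49% were below 0, 0.159% were called and 4.23% were lower in KO at such a p. For 2 markers, chosen after their values were seen, every KO library was below both WT libraries, as held for 10.3% of all tested genes. Vwf, a mark of platelet-biased stem cells, was at 169 and 171 CPM in WT against 52.7, 100.2, 112 and 116 CPM in KO replicates 1 to 4. Ly6a, which encodes Sca-1, was at 64.7 and 75.02 CPM in WT against 49.4, 51.3, 49.9 and 33.3 CPM in KO. The part of these differences in the values below was not tested.

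Of the 10 members, 7 passed the filter on low counts, and 0 of these 7 differed between KO and WT at the adjusted threshold (edgeR quasi-likelihood test), where 0.159% of the 11969 tested genes did. At an unadjusted p under 0.05 there were 2, Cdkn1c and Grb10, both lower in KO, against 9.9% of all tested genes in either direction and 4.23% lower in KO. DESeq2 and limma-voom called 0 members as well, with 0.727% and 0.0752% of all tested genes called. In the same 2 genes, every KO library was below both WT libraries, which held for 10.3% of all tested genes, and 20.3% of them had no overlap between the groups, in either direction. The fitted log2 fold change was below 0 for 5 members and above 0 for 2, with a median of -0.11 against 0.0085 over all tested genes. Mirg, Ndn and Plagl1 did not pass the filter, so these figures do not cover all members. Without KO replicates 3 and 4, the libraries with the highest CT010467.1 share, 0 members were called as well, with Cdkn1c at -0.81 and Grb10 at -0.94 on the log2 scale.

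**Figure D1:**
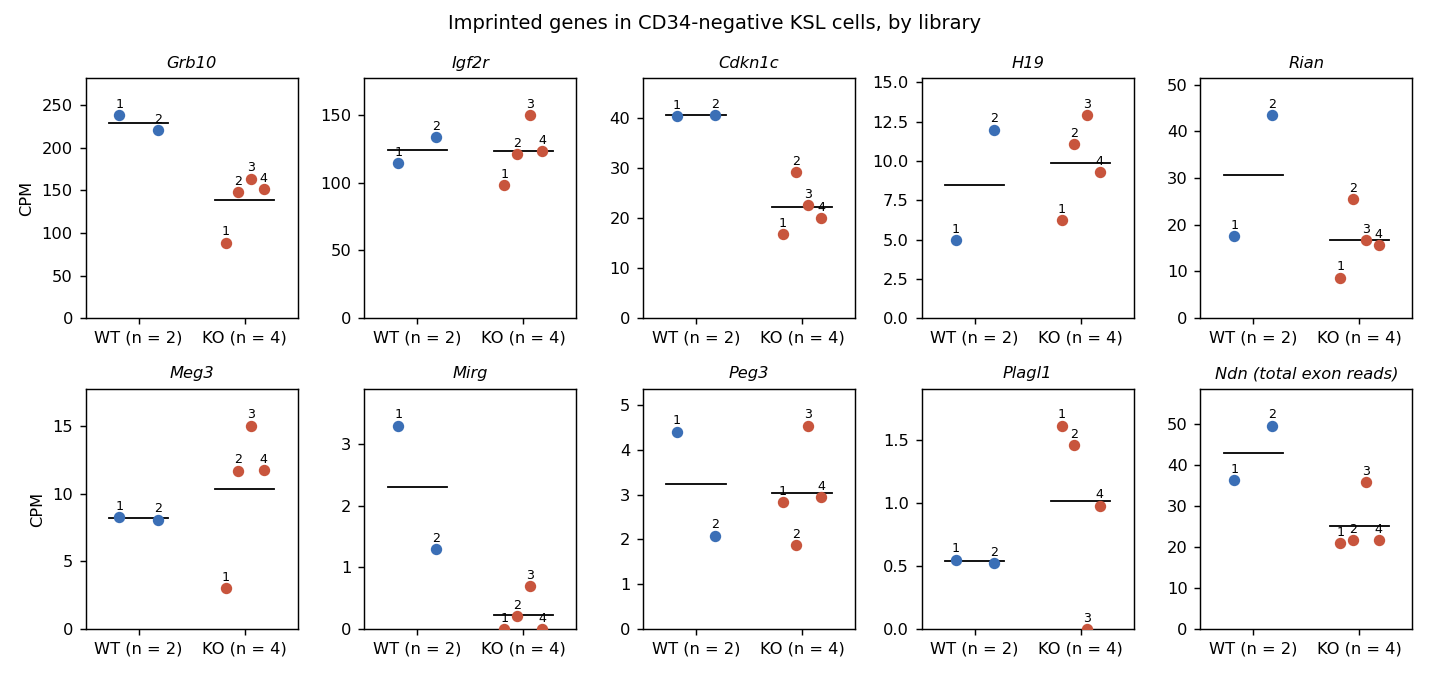
CPM of each member in every library, with WT and KO on the horizontal axis, a point for each library with its replicate number, and a line at the group mean. Cdkn1c and Grb10 lie lower in all 4 KO libraries than in both WT libraries, Igf2r and H19 overlap between the groups, and Ndn is drawn on total exon reads because its expression counts are almost all 0.

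Cdkn1c (ENSMUSG00000037664, chromosome 7, 143458339 to 143461050, minus strand, mm10) encodes p57, an inhibitor of cyclin-dependent kinases that holds stem cells out of the cycle. It had 147 and 156 counts in WT replicates 1 and 2, or 40.5 and 40.6 CPM. In KO replicates 1 to 4 it had 83, 140, 65 and 41 counts, or 16.7, 29.2, 22.7 and 20.1 CPM. The WT libraries were within 1 CPM of each other, and the highest KO library, replicate 2, stayed below them. The WT mean was 40.55 ± 0.12 CPM (SD, n = 2) and the KO mean 22.2 ± 5.3 CPM (SD, n = 4), a log2 fold change of -0.86 (SE 0.24). The difference did not pass the test across all genes (adjusted p = 0.334, edgeR quasi-likelihood test), and the authors' deposited table gives a signed fold of -1.83 with an adjusted p of 0.607. In bulk RNA, fewer cells that express a gene and less RNA in each cell cannot be told apart.

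Only part of the Cdkn1c reads was placed uniquely, 632 of 1019 exon reads over the 6 libraries (62.0%, exact 95% interval 59.0% to 65.0%, counting error only), between 53.3% and 73.7% a library. Counting total exon reads gave 61.9 and 53.1 CPM in WT, and 21.6, 33.2, 35.6 and 28.7 CPM in KO replicates 1 to 4. With these reads, too, each KO library lay below both WT libraries, as did 10.2% of the 12736 genes tested on total exon reads. On these reads Cdkn1c stood at a log2 fold change of -0.95 (SE 0.21, adjusted p = 0.213, edgeR quasi-likelihood test). At this locus the antisense gene Gm44732 had 1 count in all. Whether counting used strand is not given in the sources used here, so reads of the antisense gene cannot be told apart from those of Cdkn1c.

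Grb10 (ENSMUSG00000020176, chromosome 11, 11930508 to 12038683, minus strand) encodes an adaptor that binds the insulin and IGF1 receptors and dampens their signal. It was the member with the most reads, 865 and 846 counts in WT (238 and 220 CPM) and 439, 709, 469 and 310 counts in KO replicates 1 to 4 (88.6, 148, 164 and 152 CPM). All 3638 exon reads were placed uniquely. KO replicate 1 was the lowest library, and the other KO libraries lay close together between it and WT. The WT mean was 229 ± 13 CPM (SD, n = 2) and the KO mean 138 ± 34 CPM (SD, n = 4), a log2 fold change of -0.74 (SE 0.21, adjusted p = 0.342, edgeR quasi-likelihood test). Without KO replicate 1 the log2 fold change was -0.58, and across all single omissions it ran from -0.83 to -0.58 with adjusted p from 0.204 to 0.661. With no filter on low counts Grb10 was called (adjusted p = 0.0037), in a fit that called 1.69% of 18189 genes.

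The promoters of Grb10 and Igf2r are shown because these were the most-read members and stood at -0.74 and -0.01 on the log2 scale. RefSeq (GRCm38.p6) windows of 300 bases, from 250 before to 50 after the start, are printed 5′ to 3′ on the gene's strand, Grb10 at chr11:12037371-12037670 and Igf2r at chr17:12769657-12769956. The capitals mark TGCCGC or its reverse complement GCGGCA, the core motif of the imprint guardian ZFP57, searched on both strands.
Grb10: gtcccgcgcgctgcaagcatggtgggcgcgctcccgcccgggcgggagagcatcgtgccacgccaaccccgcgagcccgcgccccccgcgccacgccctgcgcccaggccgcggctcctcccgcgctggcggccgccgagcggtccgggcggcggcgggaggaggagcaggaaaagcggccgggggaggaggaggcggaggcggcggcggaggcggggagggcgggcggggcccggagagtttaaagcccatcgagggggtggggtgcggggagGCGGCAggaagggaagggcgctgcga
Igf2r: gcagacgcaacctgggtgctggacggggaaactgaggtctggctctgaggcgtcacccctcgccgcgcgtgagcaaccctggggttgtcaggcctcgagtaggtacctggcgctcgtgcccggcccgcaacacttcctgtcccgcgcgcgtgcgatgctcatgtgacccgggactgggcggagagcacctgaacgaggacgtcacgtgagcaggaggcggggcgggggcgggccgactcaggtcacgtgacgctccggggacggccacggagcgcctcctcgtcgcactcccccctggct
The Grb10 window holds 45 CG dinucleotides and the Igf2r window 34, where the median window holds 7. A second Grb10 window, at chr11:12027922-12028221, holds 9 CG dinucleotides and no motif. Of the 10 windows found for 8 members, 3 hold the motif, in Grb10, Meg3 and Plagl1, and 11.6% of all 32851 windows do. The motif itself contains a CG, and these windows of Grb10, Meg3 and Plagl1 hold more CG dinucleotides than 98.1%, 62.1% and 83.1% of windows. The shares were not matched for CG content. These are matches of letters, and the data hold no measurement of methylation or binding.

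Igf2r (ENSMUSG00000023830, chromosome 17, 12682406 to 12769664, minus strand) encodes the receptor that takes IGF2 to the lysosome. It had 115 and 133 CPM in WT, and 98.04, 121, 150 and 123 CPM in KO replicates 1 to 4. The KO libraries reached both below and above the WT pair. The log2 fold change was -0.01 (SE 0.18, adjusted p = 0.988, edgeR quasi-likelihood test), and its sign turned with limma-voom and without WT replicate 2 or KO replicate 1. Airn, the paternal antisense RNA that silences Igf2r, had 8 and 19 counts in WT against 11, 12, 3 and 5 counts in KO replicates 1 to 4, and did not pass the filter.

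H19 (ENSMUSG00000000031, chromosome 7, 142575529 to 142578143, minus strand) is a maternal noncoding RNA that shares its enhancers with Igf2, the growth factor gene expressed from the paternal copy. H19 stood at 4.96 and 11.98 CPM in WT, and at 6.25, 11.1, 12.9 and 9.30 CPM in KO replicates 1 to 4. The WT libraries were about as far apart as the lowest and highest KO libraries. The log2 fold change of 0.21 (SE 0.47, adjusted p = 0.911, edgeR quasi-likelihood test) became -0.28 without WT replicate 1 and 0.98 without WT replicate 2. Igf2 had 7.98 and 5.47 CPM in WT and 6.66, 12.7, 5.59 and 5.87 CPM in KO, with a log2 fold change of 0.22 (SE 0.49, adjusted p = 0.91).

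On distal chromosome 12, Meg3 (ENSMUSG00000021268, 109541001 to 109571726), Rian (ENSMUSG00000097451, 109603940 to 109661716) and Mirg (ENSMUSG00000097391, 109729764 to 109749460) lie one after another on the plus strand. Meg3, the long noncoding RNA next to the control region of the domain, had 8.26 and 8.08 CPM in WT and 3.03, 11.7, 15.01 and 11.7 CPM in KO replicates 1 to 4. KO replicate 1 lay below WT and the other KO libraries above it. Its log2 fold change was 0.32 (SE 0.56, adjusted p = 0.883, edgeR quasi-likelihood test), with values from 0.083 to 0.64 when single libraries were left out and of -0.14 without KO replicates 3 and 4.

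Rian, the host of C/D box snoRNAs, had 17.6 and 43.5 CPM in WT and 8.67, 25.5, 16.8 and 15.7 CPM in KO replicates 1 to 4. The higher WT library stood above every KO library and the lower one within their range. Rian stood at a log2 fold change of -0.87 (SE 0.43, adjusted p = 0.543, edgeR quasi-likelihood test). This was -0.08 without WT replicate 2 and -1.38 without WT replicate 1, so its size rests on which WT library is kept.

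Mirg, the member that hosts the most miRNAs, had 12 and 5 counts in WT against 0, 1, 2 and 0 counts in KO replicates 1 to 4. The counts are few, and the lower WT library had more than any KO library. The sums of 17 and 3 counts give a ratio of WT to KO of 11.1 (exact 95% interval 3.22 to 59.2, counting error only). Its unique intron reads, 2 and 8 in WT against 3, 3, 1 and 6 in KO replicates 1 to 4, did not show this split. Their sums of 10 and 13 give a ratio of WT to KO of 1.67 (0.657 to 4.13), an interval that includes equality. Mirg did not pass the filter, and the authors' deposited table gives it a signed fold of -9.61 with an adjusted p of 0.175. Rtl1, a paternally expressed gene between Meg3 and Rian, chosen after its values were seen, had 9 and 9 counts in WT and 0, 3, 0 and 0 in KO, a ratio of 11.8 (3.44 to 62.4). For Rtl1 the authors' deposited table lists an adjusted p of 0.033 and a signed fold of -10.4. Noncoding RNA of the maternal copy crosses Rtl1 on the other strand, and whether counting used strand is not given in the sources used here. Dlk1, the paternal gene at the other end, a ligand-like membrane protein, had 10.2 and 6.77 CPM in WT and 4.84, 4.59, 3.14 and 5.87 CPM in KO, with a log2 fold change of -0.88 (SE 0.47, adjusted p = 0.582).

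Reads within introns, which come mainly from unspliced RNA, gave a second reading of the longer members. On unique intron reads, 5 members were tested and 0 called (edgeR quasi-likelihood test), where 0.0863% of 11585 genes were called, and 1 had an unadjusted p under 0.05, where 6.85% did. Rian was at 11.1 and 10.7 CPM of intron reads in WT and at 2.34, 6.60, 3.74 and 9.81 CPM in KO replicates 1 to 4. Here all KO libraries lay below both WT libraries, KO replicate 4 by less than 1 CPM, as did 7.72% of the 11585 genes. The log2 fold change of Rian was -0.99 (SE 0.50, adjusted p = 0.756), and between -1.34 and -0.74 when single libraries were left out. Of its 257 intron reads, 180 were placed uniquely. On all intron reads Rian had 7.004 and 7.87 CPM in WT against 1.36, 5.93, 2.93 and 8.38 CPM in KO replicates 1 to 4, so KO replicate 4 stood above both WT libraries and the groups overlapped. The log2 fold change there was -0.71 (SE 0.52, adjusted p = 0.879, edgeR quasi-likelihood test).

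Grb10 introns had 33.0 and 53.0 CPM in WT and 19.2, 46.0, 38.1 and 45.6 CPM in KO replicates 1 to 4. KO replicates 2 to 4 lay between the WT libraries, unlike in exons. The log2 fold change in introns was -0.22 (SE 0.31, adjusted p = 0.951, edgeR quasi-likelihood test), and 0.16 without WT replicate 2. Tested directly, the intron change exceeded the exon change of Grb10 by 0.50 on the log2 scale (SE 0.27, adjusted p = 0.76), which did not pass. Of 4 members tested in this way 0 were called, as were 0 of 9707 genes (0%), with 661 genes (6.81%) at an unadjusted p under 0.05. Intron changes of Igf2r (-0.41, SE 0.45) and Meg3 (-0.41, SE 0.51) were within their errors, and 218 of the 1021 intron reads of Igf2r were placed uniquely. On all intron reads Igf2r stood at -0.01 (SE 0.23), so its intron value rests on which reads are counted. Airn lies across part of the Igf2r introns, so these reads may come from either gene.

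**Figure D2:**
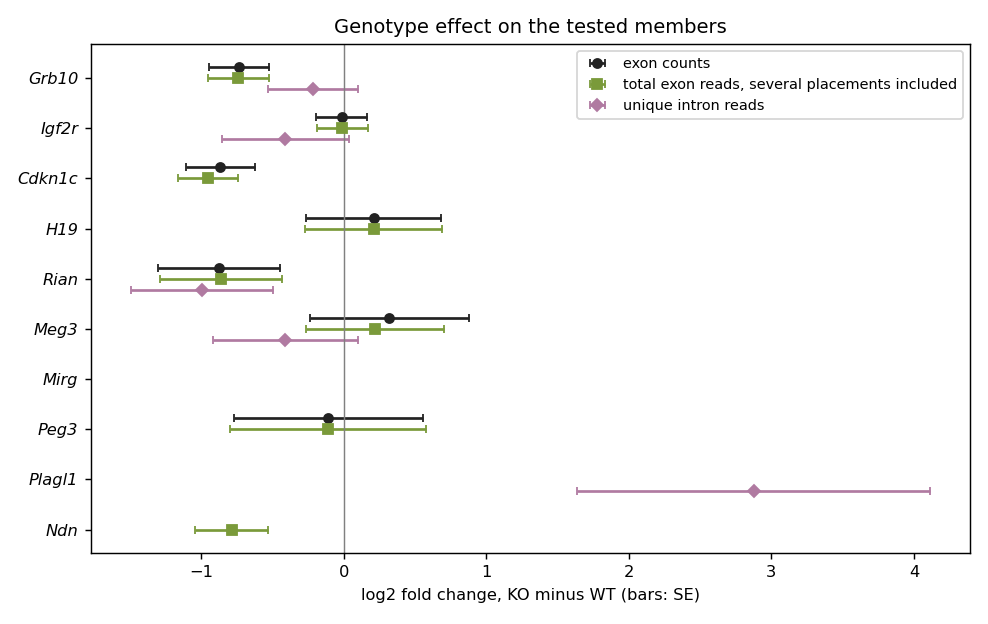
Log2 fold change of each member (KO minus WT, horizontal axis) with its SE as bars, on exon counts, on total exon reads and on unique intron reads. The exon values of Cdkn1c and Grb10 lie below 0 by more than their bars, the intron value of Grb10 lies at -0.22, and members without a marker were not tested on that measure.

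Among the paternally expressed members, Peg3 (ENSMUSG00000002265, chromosome 7, 6703892 to 6730431, minus strand), a zinc finger protein, had 4.405 and 2.08 CPM in WT and 2.82, 1.88, 4.54 and 2.94 CPM in KO replicates 1 to 4. The groups overlapped, and the log2 fold change was -0.11 (SE 0.66, adjusted p = 0.973, edgeR quasi-likelihood test). Its sign turned without WT replicate 1 (0.52) and without KO replicate 2 (0.079).

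Plagl1 (ENSMUSG00000019817, chromosome 10, 13060504 to 13131694, plus strand), a zinc finger factor that arrests the cell cycle, had 2 and 2 exon counts in WT against 8, 7, 0 and 2 counts in KO replicates 1 to 4. The exon sums of 4 and 17 give a ratio of KO to WT of 2.17 (exact 95% interval 0.707 to 8.85, counting error only), an interval that includes equality. Its unique intron reads numbered 0 and 2 in WT against 11, 21, 5 and 2 in KO. The reads were mostly in KO replicates 1 and 2, which are also the deepest libraries, while KO replicate 4 had as many reads as WT replicate 2. Scaled for depth, introns of Plagl1 had 0 and 0.49 CPM in WT and 2.34, 3.22, 1.25 and 0.85 CPM in KO, and the log2 fold change was 2.88 (SE 1.24, adjusted p = 0.71, edgeR quasi-likelihood test). Every KO library was above both WT libraries here, as were 8.11% of the genes tested on intron reads. Without KO replicate 1 or 2, which hold 11 and 21 of its 41 intron reads, the gene did not pass the filter. Plagl1 was the member with an unadjusted p under 0.05 on intron reads.

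Ndn (ENSMUSG00000033585, chromosome 7, 62346569 to 62350262, plus strand) encodes necdin, a growth suppressor known to favour quiescence of mouse stem cells. It had 1 expression count in all 6 libraries, from KO replicate 2, but 807 total exon reads, of which 1 was placed uniquely (0.124%, exact 95% interval 0.0031% to 0.688%). The authors' RPKM, built on total exon reads, were 3.72 and 4.48 for the WT libraries against 2.19, 2.19, 2.80 and 1.25 for the KO libraries in order, so the gene appears absent or present by the column read. In GENCODE M21, 0 other genes share a stretch of 50 bases or more with Ndn at 98% identity, and the source of its placements was not tested.

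On total exon reads Ndn had 36.4 and 49.6 CPM in WT and 20.9, 21.7, 35.9 and 21.8 CPM in KO replicates 1 to 4. All KO libraries lay below both WT libraries, KO replicate 3 by less than 1 CPM, as did 10.2% of all genes tested on these reads. This gave a log2 fold change of -0.78 (SE 0.26, adjusted p = 0.432, edgeR quasi-likelihood test). On total exon reads 8 members were tested, 0 were called against 0.133% of all genes, and 3 (Cdkn1c, Grb10 and Ndn) had an unadjusted p under 0.05 against 9.63% of all genes. Of the exon reads of Meg3 85.2%, of Rian 90.7% and of Igf2r 99.8% were placed uniquely, and of those of H19, Mirg, Grb10, Peg3 and Plagl1 100% were.

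**Figure D3:**
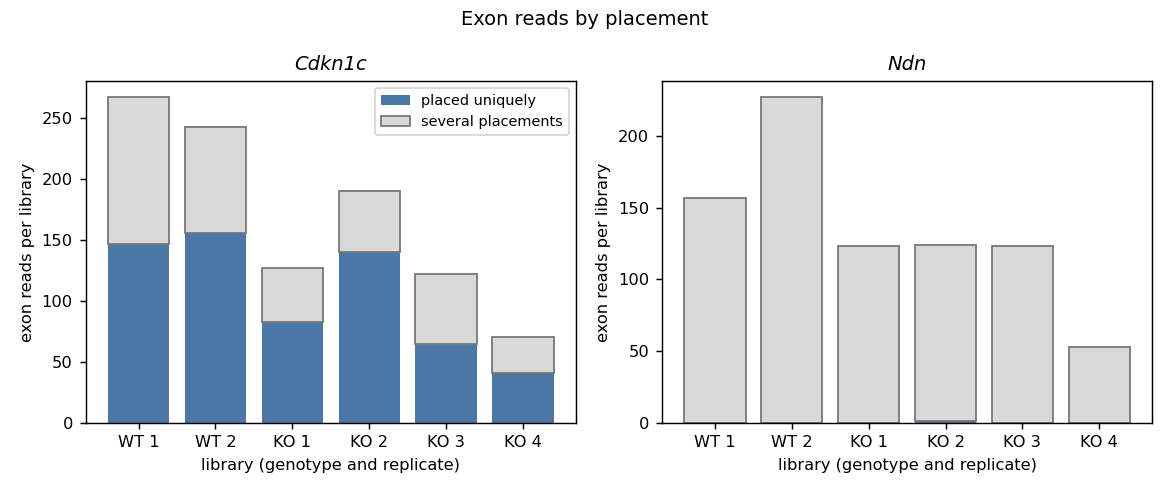
Exon reads of Cdkn1c and Ndn in each library (vertical axis, reads), split into reads placed uniquely and reads with several placements. About 62.0% of the Cdkn1c reads and 1 of the 807 Ndn reads were placed uniquely.

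Set in order by CPM per kilobase of exon, the WT levels ran Grb10 (25.2), Cdkn1c (19.9), Igf2r (13.1), H19 (3.57), Rian (2.69), Meg3 (0.45), Mirg (0.36), Peg3 (0.24), Plagl1 (0.069) and Ndn (0). The libraries of H19 and Rian, of Meg3 and Mirg, and of Mirg and Peg3 overlapped, and the other neighbours in this order were apart. In KO the order of the top genes by the same measure was Grb10 (15.2), Igf2r (13.04) and Cdkn1c (10.9), and these neighbours overlapped. On total exon reads per kilobase, Cdkn1c led in WT (28.2, against 21.2 for Grb10) and Ndn came next after Grb10 (11.6), overlapping Igf2r (11.04).

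**Figure D4:**
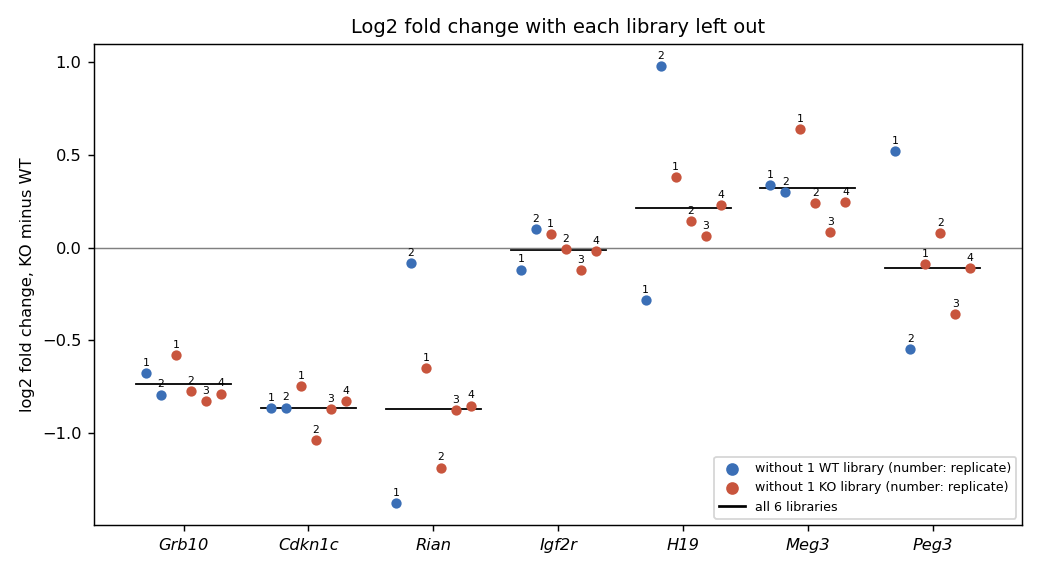
Log2 fold change of the 7 members tested on exon counts (KO minus WT, vertical axis) with all libraries (line) and with each library left out in turn (points, numbered by replicate). Grb10 and Cdkn1c stay between -1.04 and -0.58, and Rian, H19 and Peg3 move most when a WT library is left out.

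Beside the lower Cdkn1c and Grb10 values, other cell markers also differed between libraries. Summed megakaryocyte markers (9 of 9 with counts) were at 196 to 209 CPM in WT and 60.9 to 155 CPM in KO, lowest in KO replicate 1. Among the KO libraries, replicate 1 was also lowest for Grb10, Cdkn1c, Igf2r, Rian, Meg3 and H19, so this was not particular to the lower members. Stroma and endothelium markers (12 of 14, with Dcn and Lum at 0) were at 217 to 221 CPM in WT and 178 to 204 CPM in KO. Pecam1 alone was at 124 and 141 CPM in WT and from 69.5 to 124 CPM in KO, while Cdh5 and Col3a1 were at 0 in WT. Of the 7 genes of this list tested one by one, 3 were above 0 and 4 below on the log2 scale. Cxcl12 went the other way from the sum, at 2.20 and 0.26 CPM in WT and 2.94 to 8.47 CPM in KO. Vcam1 was at 20.1 and 5.47 CPM in WT and 6.28 to 49.9 CPM in KO. B cell markers (11 of 11) ran from 149 to 213 CPM in WT and to 1082 CPM in KO replicate 1, from a KO low of 179 CPM. Erythroid markers (10 of 10; 140 to 527 CPM in WT, 256 to 2920 in KO) and neutrophil and monocyte markers (11 of 11; 1097 to 1234 CPM in WT, 229 to 9128 in KO) were highest in KO replicate 4. Mast cell and basophil markers (9 of 9) were at 75.3 to 292 CPM in WT and 2.79 to 568 in KO. Prg2 and Epx, which encode eosinophil granule proteins, made up most of this sum in WT replicate 1 and in KO replicate 4. They were at 156 and 119 CPM in the former and at 269 and 246 CPM in the latter. Cpa3, of the same list, was at 7.81 CPM or less in every library. T and NK cell markers (9 of 9) were at 16.5 to 21.4 CPM in WT and 34.4 to 48.0 in KO. Most of that came from Cd4 (3.58 and 7.03 CPM in WT, 11.9 to 19.2 in KO) and Nkg7 (7.43 and 9.64 CPM in WT, 12.3 to 21.6 in KO). Cd3g was at 0.698 CPM or less. Cd3e reached 3.30 CPM in WT replicate 1 and at most 0.489 CPM in KO. Cd3d reached 1.30 CPM in WT replicate 2 and at most 0.202 CPM in KO. Cdkn1c stood at -0.75 without KO replicate 1 and at -0.83 without KO replicate 4, and Grb10 at -0.58 and -0.79. The part of these marker differences in the values of the imprinted genes was not tested.

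Genes whose profile over the 6 libraries was most like that of a member were sought among 9621 genes by the root mean square difference of centred log2(CPM + 1). For Cdkn1c these were Txnip (0.075), which binds thioredoxin, Gng11 (0.084), a G protein gamma subunit, and Coq8a (0.11), needed for coenzyme Q. For Grb10 they were Tgm2 (0.11), a transglutaminase, Tmem40 (0.12) and C1rl (0.12), a protease-like relative of complement C1r. Cdkn1c ranked 78th for Grb10 and Grb10 ranked 51st for Cdkn1c, at a difference of 0.22. For Igf2r they were Paqr8 (0.052), P2rx1 (0.059), an ATP-gated channel, and Zbtb49 (0.063). Their log2 fold changes, -0.08, -0.08 and -0.09, were near 0 like that of Igf2r. This likeness follows from the search, which picked them over the same libraries.

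Of 53 other imprinted genes, 27 were tested and 0 called (edgeR quasi-likelihood test), with 5 at an unadjusted p under 0.05, 4 of them lower in KO, and a median log2 fold change of -0.10 with 10 above 0 and 17 below. Over all tested genes, 9.9% were at such a p, 4.23% lower in KO, and 51% were above 0 and 49% below. DESeq2 and limma-voom called 0 of these genes too. Those with the smallest p were Osbpl5 (-0.78), a lipid transfer protein, Tspan32 (-0.44), a tetraspanin of blood cells, Zdbf2 (2.87, from 2 counts in WT), Peg12 (-0.81), Slc22a3 (-0.55), an organic cation transporter, and Phlda2 (-1.08), a growth restrainer of placenta, with adjusted p from 0.415 to 0.525. There were 13 genes at 0 counts in all libraries, of which 2, Kcnq1ot1 and Peg13, have a deposited exon length of 0 and so could not be counted.

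Around Cdkn1c, within 1.5 Mb, 8 imprinted genes were tested. H19 and Igf2 were above 0, and Tspan32, Cd81 (-0.25), Cdkn1c, Slc22a18 (-0.68), Phlda2 and Osbpl5 below, with a median of -0.56 on the log2 scale. The 21 other genes tested in that window had 9 above and 12 below 0 and a median of -0.07. Around Meg3 the imprinted genes tested were Dlk1, Meg3 and Rian, with Dio3 at 0 counts, and the 18 other genes had 10 above and 8 below 0. Neighbours are not independent of each other, and 0 of these genes passed the adjusted threshold (edgeR quasi-likelihood test).

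**Figure D5:**
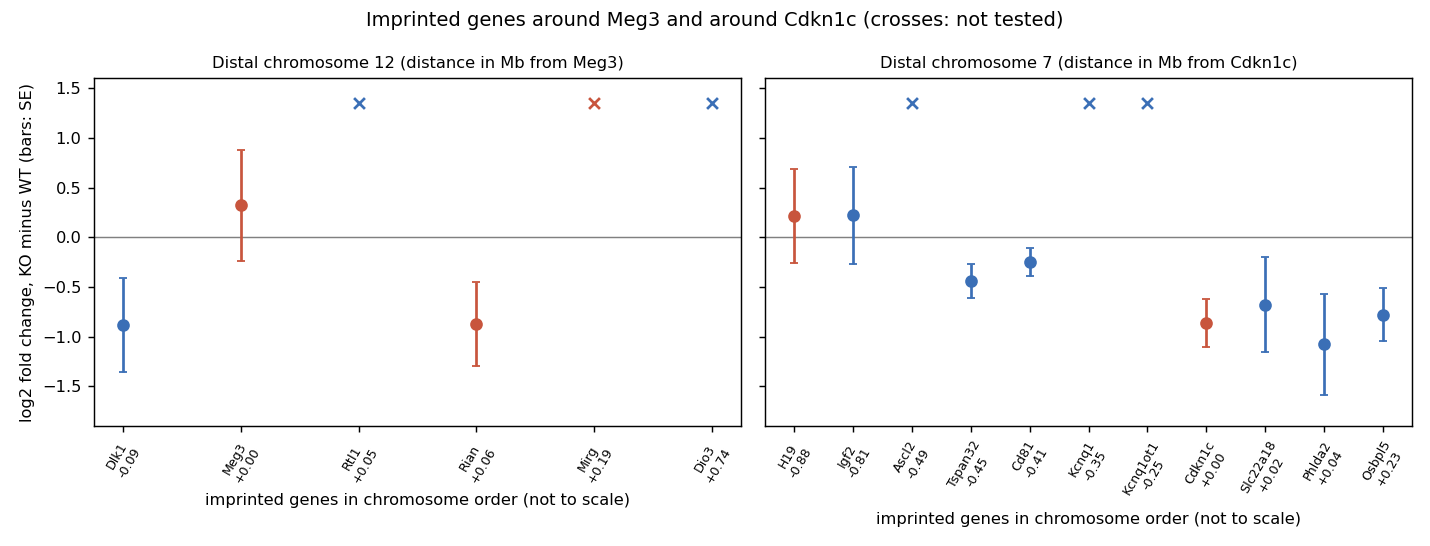
Log2 fold change (KO minus WT, vertical axis, SE as bars) of imprinted genes in their order along distal chromosome 12 and distal chromosome 7, with the distance in Mb from Meg3 or Cdkn1c under each name, members in red and other imprinted genes in blue, and crosses for genes not tested. Of the 8 tested imprinted genes around Cdkn1c, the 6 from Tspan32 to Osbpl5 lie below 0, and H19 and Igf2 lie above 0 with bars that reach it. In the same window 12 of the 21 other tested genes were below 0, as were 49% of all tested genes. Of these 8 imprinted genes, 0 were called.

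Genes of the pathways around the members were read from lists. Of 33 genes of IGF signalling and sorting, 24 were tested, 0 were called and 2 had an unadjusted p under 0.05, with a median of 0.12 on the log2 scale (13 above and 11 below 0). Over all tested genes these shares were 9.9% and 51% above 0. Those with the smallest p were Igf2bp3 (2.77, from 3 counts in WT), an mRNA-binding protein of fetal stem cells, M6pr (-0.30), the other receptor for mannose 6-phosphate, and Akt1 (-0.28). Of 21 genes that set or keep imprints, 19 were tested and 0 called, but 18 were above 0, the median was 0.25, and all 6 at an unadjusted p under 0.05 were higher in KO. Over all tested genes 51% were above 0, the median was 0.0085, and 5.67% were higher in KO at such a p. Among these, Zfp445, a zinc finger protein that guards imprints, had a WT mean of 70.9 ± 6.4 CPM (SD, n = 2) and a KO mean of 110.2 ± 12.4 CPM (SD, n = 4), a log2 fold change of 0.64 (SE 0.17, adjusted p = 0.31, edgeR quasi-likelihood test). Hells, a chromatin remodeller needed for DNA methylation, stood at 0.62 (SE 0.19, adjusted p = 0.37) and Arid4b at 0.45 (SE 0.15, adjusted p = 0.39).

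Of 17 CDK inhibitors and G1 kinases other than Cdkn1c, 15 were tested and 0 called, with a median of 0.14 and 12 above 0, against 0.0085 and 51% over all tested genes. There were 2 at an unadjusted p under 0.05, both higher in KO, against 9.9% of all tested genes in either direction and 5.67% higher in KO. Cdkn1a, which encodes p21, stood at 10.7 and 13.5 CPM in WT and at 95.2, 52.4, 50.6 and 33.8 CPM in KO replicates 1 to 4. All KO libraries were above WT, as held for 10% of all tested genes, in contrast to Cdkn1c in the same libraries. Its log2 fold change was 2.27 (SE 0.39, adjusted p = 0.071, edgeR quasi-likelihood test), and it was called by DESeq2 (adjusted p = 8.1e-07) and without KO replicate 1 (0.03) or KO replicate 4 (0.011). It was not called by limma-voom (0.149) or on total exon reads (0.117), nor without WT replicate 1 (0.617), WT replicate 2 (0.559), KO replicate 2 (0.122) or KO replicate 3 (0.116). Cdkn1b, which encodes p27, stood at 0.57 (SE 0.18, adjusted p = 0.372) and the pocket protein gene Rbl1 at 0.45 (SE 0.22, adjusted p = 0.547).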

How the data were processed

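RNA of mouse bone marrow CD34-negative KSL cells was extracted with Trizol and made into libraries with a strand-marking NEBNext kit, per the labels' protocols. Reads were placed on mm10, per the submitters' processing notes. Not given in the sources used here are the aligner, the counting tool and its use of strand. Per the file headers, the authors deposited expression values as read counts per gene, with counts of unique and total exon, junction and intron reads. Every expression value (100%) equals unique exon reads plus junction reads not placed uniquely. RPKM was deposited by the authors and built on total exon reads. Per the file headers, the authors also deposited the p-values of an EDGE test with tagwise dispersions and its signed fold, a score that is positive where KO is higher. A further 42 per-library columns were not used. Of the gene IDs, 51633 were found in GENCODE M21, 48589 at the same position once 1 was added to the start.

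The edgeR quasi-likelihood test (edgeR 4.0.16 with limma 3.58.1 and R 4.3.3) was run on the counts, with filterByExpr, TMM, genotype as the term over all 6 libraries, and Benjamini-Hochberg adjustment over all genes kept. Unique intron reads and total exon reads were tested likewise, each scaled to its own totals, and intron against exon by an interaction term with the library as a block. The SE is the log2 fold change over the square root of F. Ratios of few counts have exact 95% intervals that cover counting error only. The code was tested on simulated data. Sequences are from RefSeq (GRCm38.p6), with windows for 8 of 10 members, and shared stretches were sought with blastn 2.17.0.

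The members and the gene lists were chosen with earlier results of these data known, so no list was given a test of its own. Named genes were the members, Elovl6, the 6 other imprinted genes and the 3 genes of each pathway list with the smallest p, neighbours of the members (Igf2, Dlk1, Airn, Kcnq1ot1, Mir675), and the 3 genes of a mean of at least 10 CPM most like each of the 3 most-read members. Rtl1, Vwf, Ly6a, Cd81, Slc22a18, Peg13, Dio3, Cxcl12, Vcam1, Cd3e and Cd3d were named after their values were seen. Alternatives were DESeq2 size factors, the DESeq2 1.42.0 Wald test, limma-voom, no filter, a minimum mean of 5 CPM, unique exon reads, total exon reads, each library left out, KO replicates 3 and 4 left out together, and the replicate number as a block. Total intron reads, and Ndn and Cdkn1c on total exon reads, were added after the data were seen. Tables were made with pandas 2.3.3 and figures with matplotlib 3.10.9.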

Additional observations from a re-analysis of the deposited data

Results flagged for a closer look

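In 3 of the 27 groups searched (members by measure), the highest of the 4 KO libraries stood apart from the others by more than the 95% limit of Dixon's test, which chance passes in about 1 in 20 groups. Ndn on total exon reads was at 35.9 CPM in KO replicate 3, against 20.9 to 21.8 CPM in the other KO libraries, and this library came within 1 CPM of WT replicate 1. Ndn on expression counts was at 0.209 CPM in KO replicate 2, which is its 1 uniquely placed read, and at 0 in the others, so this case rests on a single read. Unique intron reads of Mirg were at 2.56 CPM in KO replicate 4, from 6 reads, against 0.249 to 0.638 CPM in the other KO libraries and 0.505 and 1.94 CPM in WT, a case that rests on these 6 reads.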

How the results depend on the processing

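Under 15 alternatives on exon counts, Cdkn1c, Grb10 and Rian kept a log2 fold change below 0, and the number of members called stayed at 0 except with no filter, where it was 1, Grb10 (-0.73, adjusted p = 0.0037). With single libraries left out (a lone WT library is then assumed to vary like the other group), 0 members were called, and the ranges were -1.04 to -0.75 for Cdkn1c, -0.83 to -0.58 for Grb10, -1.38 to -0.08 for Rian, -0.28 to 0.98 for H19, 0.083 to 0.64 for Meg3, -0.12 to 0.098 for Igf2r and -0.55 to 0.52 for Peg3, -0.15 to 0.52 for Igf2, -0.22 to 0.0095 for Paqr8 and -0.21 to 0.064 for P2rx1. In introns they were -0.51 to 0.16 for Grb10, -0.80 to 0.13 for Igf2r and 1.97 to 6.11 for Plagl1 over the 4 omissions in which it passed the filter (it did not without KO replicate 1 or 2), and for Ndn on total exon reads -1.004 to -0.54. Without WT replicate 1, H19 was at -0.28 and Peg3 at 0.52. Without WT replicate 2, Igf2r was at 0.098, its introns at 0.13, the Grb10 introns at 0.16, Igf2 at -0.03 and P2rx1 at 0.064. Without KO replicate 1, Igf2r was at 0.074, Paqr8 at 0.0095 and P2rx1 at 0.012, and without KO replicate 2, Peg3 was at 0.079 and Igf2 at -0.15. Without KO replicates 3 and 4 Meg3 was at -0.14, with limma-voom Igf2r was at 0.025, and on total intron reads the intron-against-exon value of Igf2r was 0.030. The cause was not tested. Of the CDK inhibitors, 1 gene, Cdkn1a, was called with DESeq2, with no filter, without KO replicates 3 and 4, and under the replicate block, with 0 to 1 called when single libraries were left out. Over all genes the number called was 19, against 87 with DESeq2, 9 with limma-voom, 307 with no filter, 33 without KO replicates 3 and 4, and 2 to 30 with single libraries left out. Mirg and Plagl1 did not pass the filter on exon counts, and Peg3 had 66 exon counts in all (SE 0.66).

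WT and KO share the replicate numbers 1 and 2 only. Deviations of same-numbered libraries from their group means correlated at -0.13 and -0.12 over 9622 genes. The deviations of the 2 WT libraries mirror each other, so these values are not independent and cannot decide whether the numbers pair the libraries. The labels do not say what a number marks. In a fit on these 4 libraries with the replicate block, 0 members were called on exon counts or introns and 34 of all genes were, with Cdkn1c at -0.86, Grb10 at -0.99, Rian at -0.88 and Meg3 at -0.37.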
